A study of Mus musculus with 6 samples.

Results

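The arrays compared here are the 6 mouse retina arrays of the series, split by their signal for the lens gene Cryaa. There were 2 arrays named lens-rich (replicate 2 of the Atrx knockouts and replicate 1 of the wildtypes). The other 4, knockout 1 and 3 and wildtype 2 and 3, were named lens-poor. An array was called lens-rich where Cryaa, the gene of alpha A crystallin, had a log2 value of 10 or more. All 6 of the 6 samples belong to one class or the other, and the comparison ran over the 23521 of 41345 probe sets that carry exactly 1 gene symbol. Because the classes were made from measured values of these same arrays, every difference between lens-rich and lens-poor arrays is given as a description and without a test.

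Each sample was whole retina of a male mouse at postnatal day 17, pooled from both eyes. Per the labels' protocol, dissection removed the lens first and the retina afterwards. The knockout mice were Chx10Cre+/-;Atrx flox/y and the wildtype littermates Chx10Cre-/-;Atrx flox/y, so all 6 animals carried the floxed allele of Atrx, a chromatin remodeller, and only the knockouts carried Cre. Chx10 is a gene of retinal progenitors, and its driver leaves Atrx loss and the transgene itself inseparable in this design. Each class holds both genotypes, with 1 lens-rich array in each. Values are RMA log2 expression values, which are background-corrected, quantile-normalized and summarised over the probes of a probe set.

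The lens is built of fibre cells covered in front by a single layer of epithelium. Fibre cells fill with crystallins, the soluble proteins that give the lens its refractive power: the alpha crystallins are small heat shock proteins and chaperones, and the beta and gamma crystallins form a second, structural family. As fibres mature they also build a beaded-filament cytoskeleton, a membrane rich in the water channel MIP and in connexins, and then lose their nuclei and organelles. Several crystallins, among them Cryab, are known to be made at lower levels in the retina as well.

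The upstream sequences of 4 crystallin genes are shown because these genes rose together on the same arrays. They are the 250 bases before the annotated start, from RefSeq, build GRCm38.p6, on the gene's own strand. Capitals mark TGCTGA or its reverse complement TCAGCA, a core of the element bound by MAF factors, and TATA where it lies from 40 to 20 bases before the start. Cryaa lies on the plus strand at chr17:31677681-31677930, Cryba1 on the minus strand at chr11:77725294-77725543, Crygs on the minus strand at chr16:22811411-22811660 and Crygf on the plus strand at chr1:65926272-65926521.
Cryaa: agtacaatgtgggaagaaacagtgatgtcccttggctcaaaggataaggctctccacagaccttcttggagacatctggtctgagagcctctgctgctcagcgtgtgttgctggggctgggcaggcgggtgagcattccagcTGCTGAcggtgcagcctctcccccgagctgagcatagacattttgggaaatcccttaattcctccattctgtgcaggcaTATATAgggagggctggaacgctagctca
Cryba1: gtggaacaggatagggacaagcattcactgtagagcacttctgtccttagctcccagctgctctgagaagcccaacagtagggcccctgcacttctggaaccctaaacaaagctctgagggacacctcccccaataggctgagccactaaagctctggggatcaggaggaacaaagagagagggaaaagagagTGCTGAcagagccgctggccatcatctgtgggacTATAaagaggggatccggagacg
Crygs: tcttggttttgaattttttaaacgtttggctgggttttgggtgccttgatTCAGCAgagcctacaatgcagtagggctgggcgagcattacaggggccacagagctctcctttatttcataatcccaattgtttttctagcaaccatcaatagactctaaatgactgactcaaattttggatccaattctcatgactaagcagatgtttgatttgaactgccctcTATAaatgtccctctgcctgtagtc
Crygf: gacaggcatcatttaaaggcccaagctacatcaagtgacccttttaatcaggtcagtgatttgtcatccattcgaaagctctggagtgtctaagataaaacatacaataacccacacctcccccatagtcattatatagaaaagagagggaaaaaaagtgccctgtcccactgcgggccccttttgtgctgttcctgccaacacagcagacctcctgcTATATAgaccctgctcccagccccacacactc
Of the 24 lens-list genes that were higher on the lens-rich arrays in both genotypes, 23 had a promoter in the RefSeq table. TGCTGA on either strand occurred before the start of 15 of these 23, against 18.0% of all 27025 genes with a promoter of that length. TATA in the stated window occurred in 12 of the 23, against 6.54% of all genes. All of these 12 except Grifin were crystallins, a family of related genes. Lgsn, Bfsp1, Mip, Lctl, Bfsp2, Lim2, Dnase2b and Birc7, which are not crystallins, had no TATA in the window. The 2 motifs do not overlap as letters, and a match describes the letters only.

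As a check of the labels, Atrx had values of 8.42, 8.72 and 8.33 on the 3 knockout arrays and of 9.04, 8.86 and 9.17 on the 3 wildtype arrays. All knockout values lay below all wildtype values. In limma's fit with lens class as a covariate the log2 difference was -0.53 (SE 0.12, adjusted p = 0.26). Retinal identity was shared by all arrays: Gnat1, the rod transducin, lay between 13.65 and 13.72. Array medians ran from 5.57 to 5.64, Pearson's r between arrays across probe sets from 0.986 to 0.994, and no pair of arrays was identical.

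The crystallins separated the arrays by a wide margin. Cryaa, which defined the classes, had values of 12.68 on knockout 2 and 13.36 on wildtype 1, the lower of which was the member just inside the threshold. The lens-poor arrays had 6.11 and 7.26 (knockout 1 and 3) and 5.54 and 6.54 (wildtype 2 and 3), and knockout 3 was the array just outside. Cryba1, a beta crystallin, had 12.47 and 13.23 on the lens-rich arrays and 4.50, 5.94, 4.01 and 5.18 on the lens-poor arrays in the same order. Crygs, the gamma S crystallin of adult lens fibres, had 10.75 and 12.34 against 4.85, 5.42, 4.98 and 5.01. The classes did not overlap for Cryba1 or Crygs, nor for Cryaa, where the rule itself fixed this. With genotype as a covariate, the lens-rich minus lens-poor difference was 6.66 (SE 0.44) for Cryaa, 7.94 (SE 0.50) for Cryba1 and 6.48 (SE 0.36) for Crygs. These correspond to 101-fold, 246-fold and 89.3-fold on the scale of the arrays.

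All 16 crystallin genes of the list were measured, on 18 probe sets, and all 18 had a positive difference. A probe set was counted as higher in both genotypes where the lens-rich array exceeded the mean of the 2 lens-poor arrays by a log2 value of at least 1, and exceeded each of them, among knockouts and among wildtypes alike. By this count 17 of 18 crystallin probe sets, from 15 genes, were higher, with a median difference of 5.79. Over all 23521 probe sets 35 were higher (0.149%) and the median difference was -0.01. Nothing can be read from that gap, since the classes were chosen by a crystallin. The bulk samples do not tell fewer cells of a type from less RNA per cell.

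**Figure D1:**
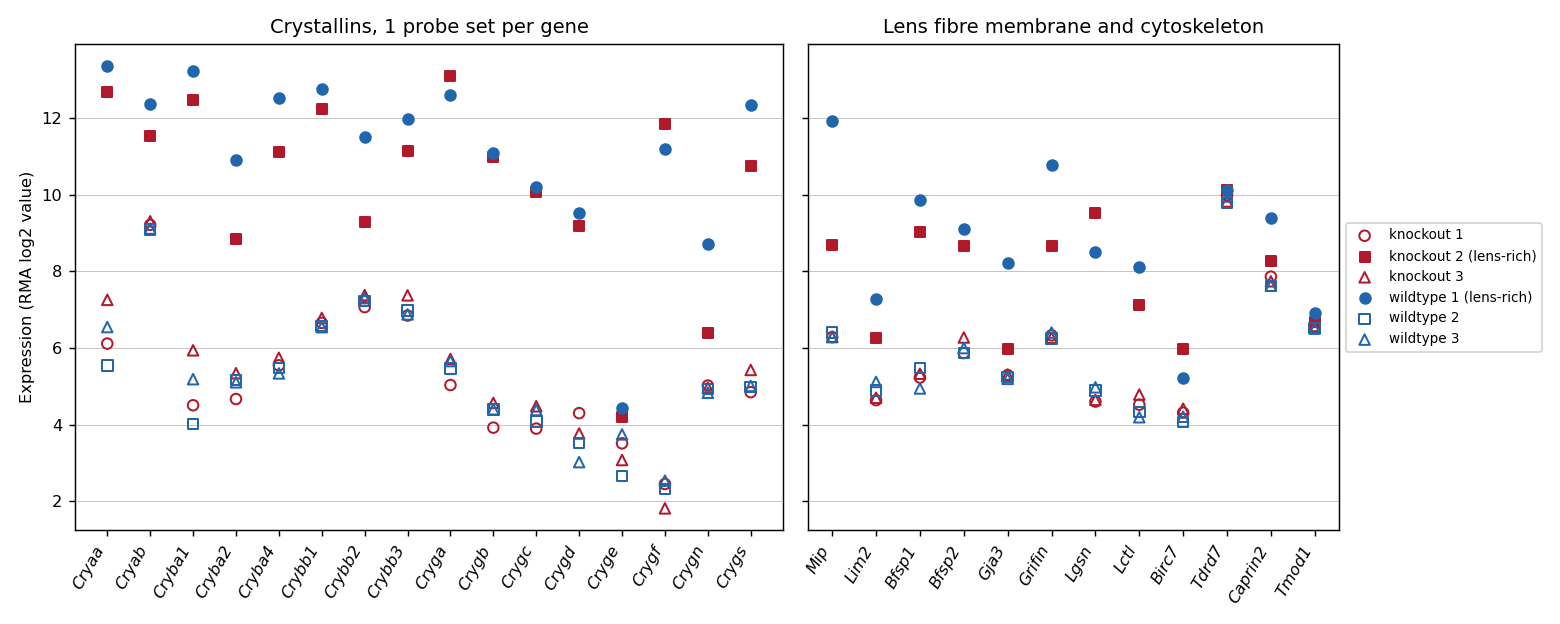
RMA log2 values of 16 crystallins (left) and 12 lens fibre genes (right) on each array, with the brightest probe set of each gene; red is knockout, blue is wildtype, filled symbols are the lens-rich arrays. Knockout 2 and wildtype 1 lie above the other 4 arrays for the crystallins, whereas Tdrd7 and Tmod1 barely separate.

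Crygf, a gamma crystallin, had the highest difference, 9.24 (SE 0.25): it was at 11.85 and 11.20 on the lens-rich arrays and between 1.81 and 2.53 on the other 4. Cryga reached 13.10 on knockout 2 and 12.62 on wildtype 1, against 5.03 to 5.71 elsewhere. Crygb (difference 6.73), Crygc (5.93) and Crygd (5.70) followed. On chromosome 1 (GRCm38.p6) Crygd, at 65061838 to 65063440, is followed by Crygc, Crygb and Cryga, the last at 65100389 to 65103363, and Crygf lies apart at 65926522 to 65928311. The gamma genes are closely similar copies, and signal shared between their probe sets makes the single values uncertain. Cryge was the 1 crystallin that missed the count, with 4.20 and 4.43 on the lens-rich arrays, 2.66 to 3.74 on the others and a difference of 1.07.

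Among the beta crystallins, differences were 6.29 for Cryba4, 5.87 for Crybb1, 4.81 for Cryba2, 4.55 for Crybb3 and 3.15 for Crybb2. Crybb2 was at 7.07 to 7.38 on the lens-poor arrays and reached 9.28 on knockout 2 and 11.50 on wildtype 1. Cryab, the second alpha crystallin, was at 9.10 to 9.31 on the lens-poor arrays and at 11.53 and 12.37 on the lens-rich ones. Its dimmer probe set gave a difference of 3.48 against 2.76 for the brighter, and the dimmer Cryaa probe set gave 4.18. Crygn, which shares features of beta and gamma crystallins, rose least evenly: 6.38 on knockout 2, 8.72 on wildtype 1 and 4.83 to 5.02 on the rest.

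The mean over the crystallin probe sets was 10.14 on knockout 2 and 10.99 on wildtype 1, and 5.21, 5.53, 5.13 and 5.30 on knockout 1, knockout 3, wildtype 2 and wildtype 3. Crystallins made up 0.926% of the summed linear signal of single-symbol probe sets on knockout 2 and 1.44% on wildtype 1. On the lens-poor arrays the share lay between 0.028% and 0.0362%. The share is one of array signal after normalization, not of RNA molecules.

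The lens fibre list, of membrane and cytoskeletal proteins, moved less than the crystallins but in the same direction. Of 14 listed genes 12 were measured on 13 probe sets, and all 13 had positive differences. The median was 1.94, and 8 of the 12 genes were higher in both genotypes. Lgsn (lengsin, a lens protein of the glutamine synthetase family) was at 9.53 on knockout 2, 8.50 on wildtype 1 and 4.60 to 4.97 elsewhere. The beaded filament genes Bfsp1 and Bfsp2 differed by 4.20 (SE 0.23) and 2.89. Mip, the water channel of the fibre membrane, was at 8.69 on knockout 2 and 11.92 on wildtype 1 against 6.28 to 6.40. A second Mip probe set differed by only 0.14, so the probe sets of this gene disagree. Grifin, a lens galectin, differed by 3.39, Lctl by 3.16, the membrane protein Lim2 by 1.94 and Birc7, an inhibitor of apoptosis, by 1.35.

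The 4 fibre genes outside the count were Gja3, Caprin2, Tmod1 and Tdrd7. Gja3, a lens connexin gene, was at 8.21 on wildtype 1 and 5.97 on knockout 2, against 5.19 to 5.30 on the lens-poor arrays. Caprin2 was likewise at 9.40 and 8.26 against 7.62 to 7.86. Tdrd7 and Tmod1, which retina also expresses, differed by 0.24 and 0.26.

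Genes of organelle removal, transcription and the lens epithelium showed smaller differences. Dnase2b, the nuclease that degrades DNA in fibre nuclei, was at 6.08 and 5.85 on the lens-rich arrays and 3.80 to 4.26 on the others. Plaat3, a phospholipase of fibre organelle breakdown, differed by 0.55, and Fundc1 by -0.04. None of the 9 transcription factor genes was higher by the count, with a median of 0.15. The largest difference was that of Sox1, 0.82, with 5.75 on knockout 2 and 6.44 on wildtype 1 against 5.05 to 5.51. Hsf4, the heat shock factor of lens, differed by 0.47 and the brighter Maf probe set by 0.69. Pax6, Six3 and Mab21l1, all retinal genes too, differed by -0.02, -0.03 and -0.01. In the epithelial list none of 5 genes was higher by the count and the median was 0.13: Foxe3, which marks lens epithelium, was at 5.17 on knockout 2 and 6.10 on wildtype 1, with 5.54 to 5.81 on the lens-poor arrays, and E-cadherin, Cdh1, at 5.69 and 6.08 with 5.70 to 5.98. For Foxe3 and the brighter Cdh1 probe set, knockout 2 lay below and wildtype 1 above all 4 lens-poor arrays. The dimmer Cdh1 probe set did not share this, with 4.20 on knockout 2 and 4.50 on wildtype 1 against 4.13 to 4.89. Epha2 and Pdgfra of this list were higher on both lens-rich arrays than on any lens-poor array. Epha2 was at 5.32 and 5.58 against 5.13 to 5.27, and Pdgfra at 7.447 and 7.269 against 6.985 to 7.109. Their differences, 0.25 and 0.31, were near those of the fibre genes Tdrd7 and Tmod1. Gja1, at 10.16 and 9.92 against 8.83 to 10.25, did not separate the classes. By the count 8 of 12 fibre genes and none of 5 epithelial genes were higher, so the class name rests on crystallin and fibre genes.

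**Figure D2:**
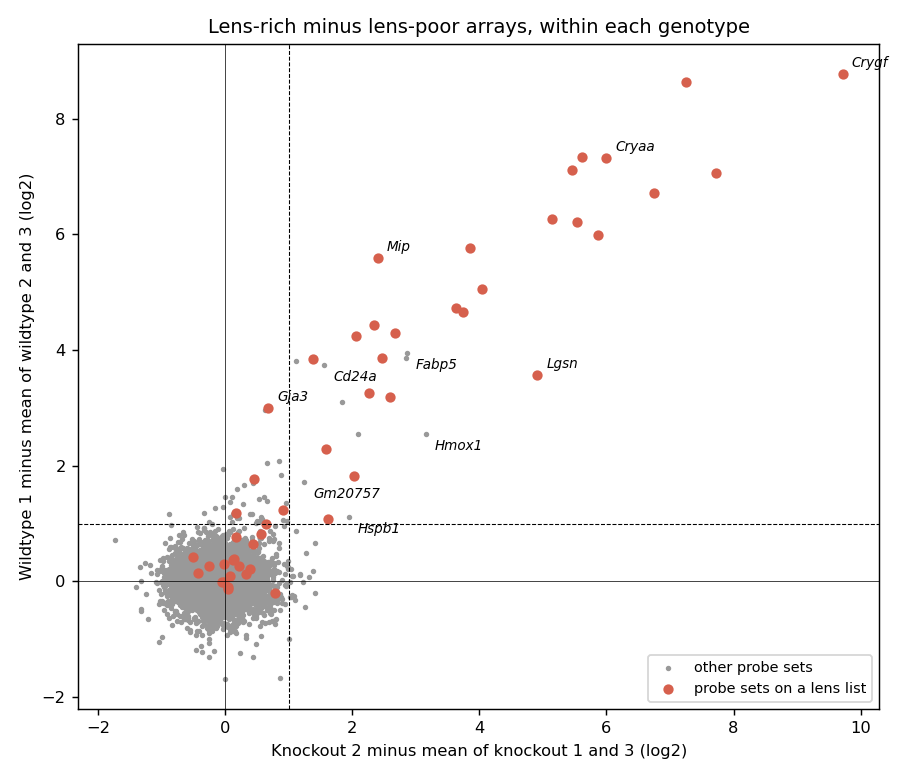
Difference of each of 23521 probe sets between the lens-rich array and the mean of 2 lens-poor arrays, in knockouts (horizontal) and wildtypes (vertical), log2; dashed lines mark a difference of 1. Lens-list probe sets run along the diagonal up to Crygf at 9.72 and 8.77, and most other probe sets stay near 0.

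Few genes outside the lens lists followed the crystallins. Of the 35 probe sets higher in both genotypes 26 were on a lens list, and the other 9 came from 5 genes: Fabp5, Hmox1, Cd24a, Hspb1 and the predicted gene Gm20757. Fabp5, an epidermal-type fatty acid binding protein, rose on all 4 of its probe sets counted, by 2.32 to 3.41; its brightest had 9.07 on knockout 2 and 10.23 on wildtype 1 against 7.05 to 7.39. Hmox1, the stress-inducible heme oxygenase, was at 9.12 and 8.40 against 5.63 to 6.28. Cd24a, a glycoprotein of the cell surface, was at 9.21 and 11.30 against 7.39 to 7.74, on the brighter of its 2 probe sets. Hspb1, a small heat shock protein related to the alpha crystallins, was at 7.44 and 6.93 against 5.32 to 5.95. The classes did not overlap for any of these 4 named genes, but the count already required this separation within each genotype.

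In the knockouts 55 probe sets (0.234%) exceeded a log2 difference of 1 on knockout 2, and in the wildtypes 74 (0.315%) did on wildtype 1. Lower by the same amount were 24 probe sets on knockout 2 (0.102%) and 12 on wildtype 1 (0.051%), of which 1 was shared. The 2 sets of higher probe sets share 35 probe sets, which is 63.6% of the first and 47.3% of the second. Both arrays were picked by the rule for high Cryaa, and 26 of the 35 are on a lens list. The overlap therefore follows from the rule and is no independent result. The 20 probe sets past 1 on knockout 2 alone held no lens-list member, and the 39 past 1 on wildtype 1 alone held 4. Counts within 1 genotype did not require the lens-rich array to exceed each lens-poor array. Among the 20, Eif2s3y, Kdm5d and Uty passed through low values on knockout 3. Uty was at 7.90 on knockout 2 and 7.96 on knockout 1. Tyr, Dcn, Gpnmb and Mlana passed mainly through low values on knockout 1. A lower limit of 1.5-fold in both genotypes added 23 probe sets, including Gja3, Cryge and Sox1 of the lens lists. Among the others it added were Nupr1, a stress-response gene (1.80), B3gnt5, a glycosyltransferase (1.46), the basement membrane gene Nid1 (1.35) and Anxa1, an annexin (1.02).

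The lens-rich arrays were not alike in what they gained. For each of the 35 probe sets the signal gained on a linear scale (lens-rich value minus the mean of the 2 lens-poor values of that genotype) was divided between the arrays. The gain of wildtype 1 over that of knockout 2 had a median of 1.85 and ran from 0.462 to 11.4, and 28 of 35 were above 1. The gamma crystallins A to D and F, grouped after their values were seen, had ratios from 0.635 (Crygf) to 1.30 (Crygd). The 12 other crystallin probe sets ran from 1.45 (Crybb1) to 7.63 (Crygn), all above the gamma range. Crygs had a ratio of 3.04, Crybb2 of 5.82 and Mip of 11.4. At the other end Lgsn (0.462), Birc7 (0.464), Hspb1 (0.509), Hmox1 (0.569) and Dnase2b (0.805) gained more on knockout 2. With 1 lens-rich array in each genotype these ratios have no replicate, and genotype and array cannot be told apart.

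**Figure D3:**
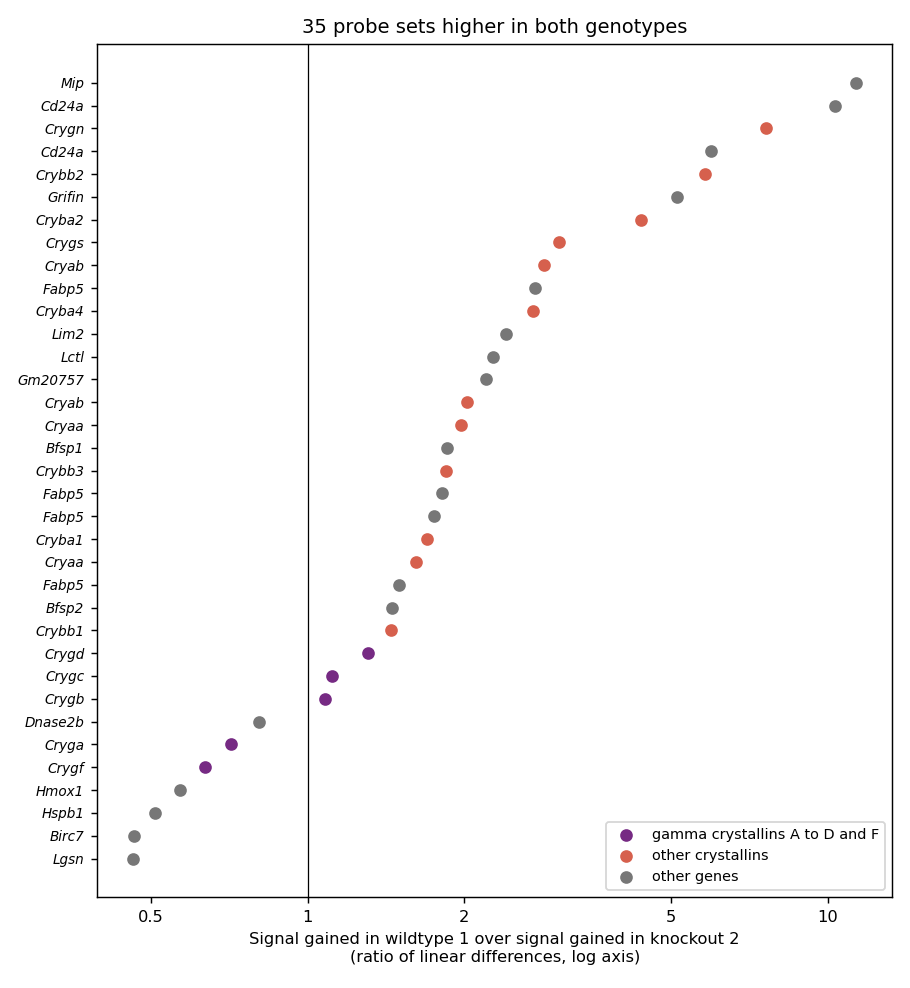
Ratio of the linear signal gained on wildtype 1 to that gained on knockout 2 for 35 probe sets (log axis), sorted; a gene with several probe sets appears more than once. The 5 gamma crystallins A to D and F lie between 0.635 and 1.30, below all 12 other crystallin probe sets.

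Probe sets past 1 on wildtype 1 alone included genes of basement membranes. Nid1, which encodes nidogen 1, was at 9.73 on wildtype 1, 7.86 on knockout 2 and 6.97 to 7.77 elsewhere. It differed by 2.05 within the wildtypes and by 0.65 within the knockouts, so its rise was not confined to wildtype 1. The collagen IV genes Col4a1 and Col4a2 were at 8.19 and 7.69 on wildtype 1. On knockout 2 they were at 7.07 and 6.49, inside the lens-poor ranges of 6.80 to 7.15 and 6.32 to 6.68. These genes were picked after their values were seen. In a list of 19 basement membrane genes written after that, the probe sets past 1 on wildtype 1 were the 4 of these same 3 genes (Nid1 has 2), so the list adds nothing to them. Its other 16 probe sets reached at most 0.53 on wildtype 1, and the list medians were 0.13 on wildtype 1 and 0.19 on knockout 2. Wnt7b (difference 1.27 within the wildtypes and -0.15 within the knockouts) and Vit, or vitrin (1.94 and -0.03), were also past 1 on wildtype 1 alone. So were Itga6, an integrin subunit that binds laminin (1.03 and 0.10), and Lix1 (1.66 and 0.29). On knockout 2, Itga6 (6.53) and Lix1 (6.43) still lay above all lens-poor arrays.

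The lens-poor arrays also differed among themselves. Knockout 3 had the highest value of the 4 for 13 of 18 crystallin probe sets, against 25.9% of all probe sets. Wildtype 2 was highest for none of 18, against 24.4% of all. Cryaa on these arrays was at 7.26 on knockout 3 and 5.54 on wildtype 2, and Crybb3 at 7.37 and 6.97. The order was not used by the rule, but probe sets of 1 array are not independent and no test was made.

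The other tissues of the front of the eye did not follow the lens genes as whole lists. Ciliary epithelium and zonule genes had a median difference of 0.03, with the widest that of Zic1 (0.11); Optc, or opticin, was at -0.05. Cornea and conjunctiva genes had a median of -0.04 and Krt12, the corneal keratin, differed by -0.03, with 5.58 to 5.97 over all 6 arrays. Smooth muscle genes had a median of 0.04, skeletal muscle -0.02, endothelium 0.02, and macrophages and microglia -0.10. The smooth muscle median was 0.28 within the knockouts and -0.19 within the wildtypes, so its 0.04 combines opposite signs. No member of these lists was higher or lower by the count. None of the 8 red blood cell genes had a probe set with that single symbol.

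The pigment epithelium and melanin list had a median difference of -0.04, with 5 probe sets above 0 and 6 below. Within it, visual-cycle and carrier genes of the pigment epithelium, the pigmented layer behind the photoreceptors, had lower values on wildtype 1. They were lower on knockout 2 too, but less clearly. Best1, a dimmer pigment epithelium gene of the list, differed by only -0.04, with 4.65 on wildtype 1 against 4.62 and 4.75 on wildtype 2 and 3. Rpe65, the isomerase of the visual cycle, was at 8.13 on knockout 2 and 7.46 on wildtype 1. On the lens-poor arrays it was at 8.19, 8.79, 8.89 and 8.48 (knockout 1 and 3, wildtype 2 and 3), so knockout 1 lay close to knockout 2, and wildtype 1 lay below all the others. Lrat, which makes retinyl esters, was at 8.11 and 7.52 against 7.98, 8.59, 8.94 and 8.48. The differences were -0.79 for Rpe65, -0.68 for Lrat, -0.64 for Rgr, -0.51 for the retinol carrier Ttr and -0.48 for Rdh5. Of named genes with a mean log2 value of at least 6 and the same sign in both genotypes, Rpe65, Lrat and Rgr had the 3 lowest differences. None reached -1 in both genotypes, and their part in the crystallin difference was not tested.

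The melanin genes of the same list took another course. Tyr, or tyrosinase, was at 7.74 on knockout 2 and 7.07 on wildtype 1; knockout 1 alone was low, at 5.70, and the other 3 arrays lay between 7.25 and 7.69. Pmel, Mlana, Dct and Tyrp1 had the same outlying low value on knockout 1, as did Dcn and Lum, small proteoglycans of stroma. Dcn was at 7.74 on knockout 1 and 9.45 to 9.92 on the other 5 arrays. Within the knockouts Tyr differed by 1.27 and Mlana by 1.04, and against knockout 3 alone they differed by 0.49 and 0.30. These differences therefore came mainly from knockout 1, a lens-poor array.

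**Figure D4:**
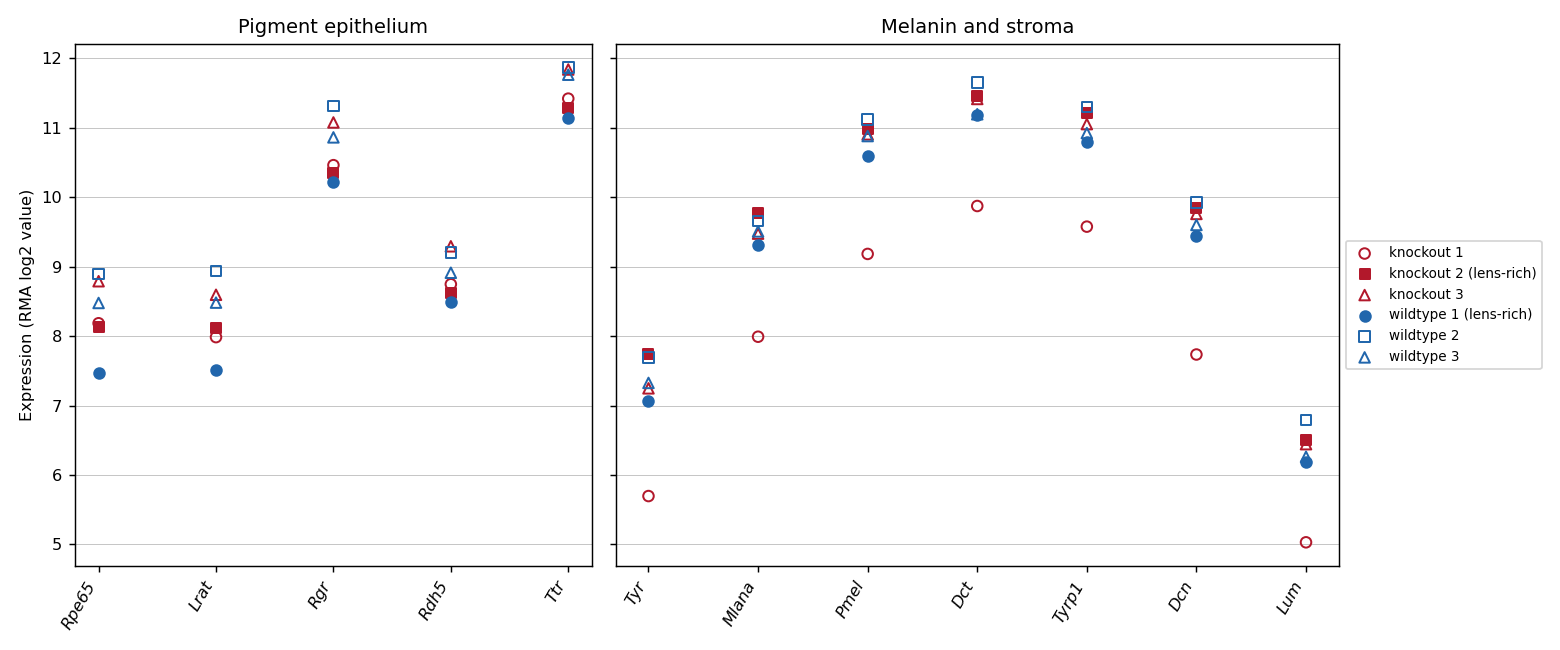
RMA log2 values of pigment epithelium genes (left) and melanin and stromal genes (right) on each array; symbols as in the plot of lens genes. Wildtype 1 is lowest for the pigment epithelium genes shown, and knockout 1 is far below the other 5 arrays for the melanin and stromal genes.

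Retinal cell classes moved little between the classes of array. Rods had a median difference of -0.04, with 11 of 12 probe sets below 0 and the lowest at -0.094. Cones had a median of -0.14 and all 8 probe sets below 0: Gngt2 was at -0.28, Pde6h at -0.21, Arr3, the cone arrestin, at -0.21, and Opn1mw at -0.15. Bipolar cells (0.08), amacrine and horizontal cells (0.07), Muller glia (0.04) and ganglion cells (0.01) were near the median of all probe sets. In the same order, their medians were 0.12, 0.22, 0.06 and 0.10 within the knockouts. Within the wildtypes they were -0.04, -0.05, -0.03 and -0.02, so the adjusted medians combine opposite signs. Tfap2a of amacrine cells (0.26), Pou4f1 of ganglion cells (0.23) and Vim of Muller glia (0.23) had the widest positive values. Vimentin is also a lens gene; it was at 11.20 on wildtype 1 and 10.67 on knockout 2 against 10.65 to 10.80. For the difference adjusted for genotype, the 5th and 95th percentiles of all probe sets were -0.28 and 0.22. Nearly all of the adjusted differences given here lay within that spread.

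**Figure D5:**
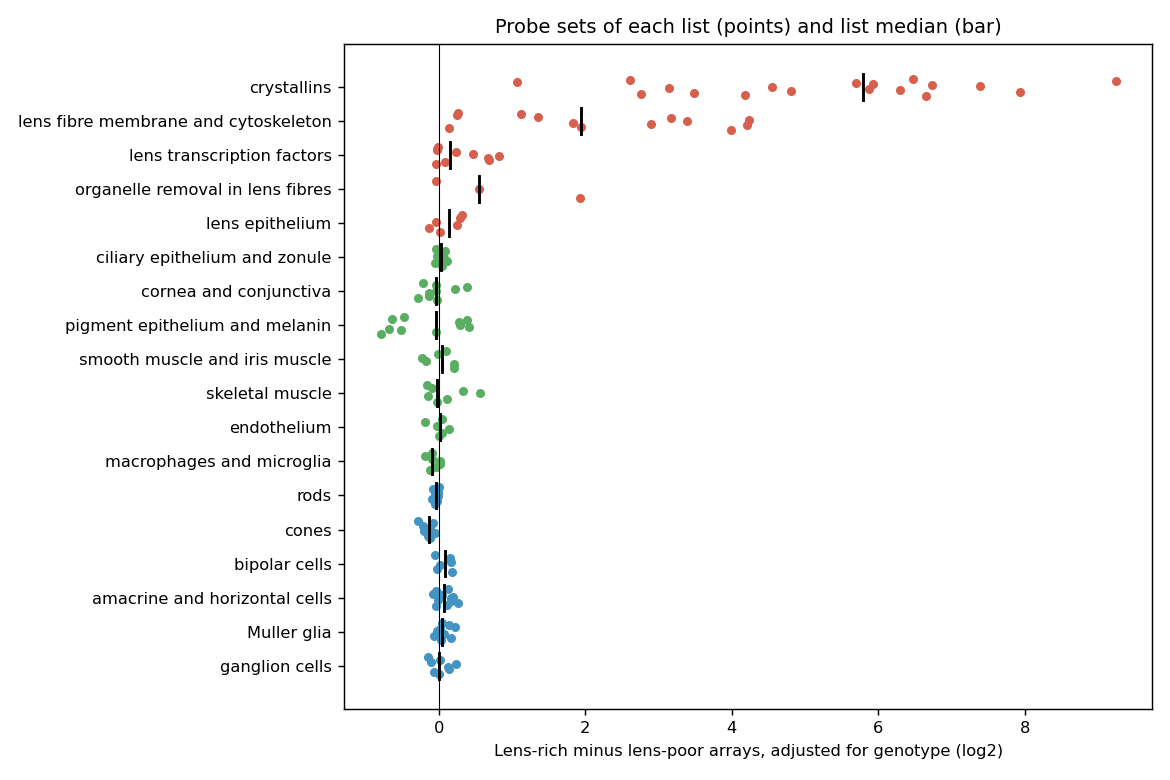
Lens-rich minus lens-poor difference, adjusted for genotype, of every probe set (points) in 18 gene lists, with the list median as a bar; red lists are lens, green other eye tissues, blue retina. Crystallins (median 5.79) and lens fibre genes (1.94) stand to the right, and retinal lists lie around 0.

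In the opposite direction 1 probe set (0.00425%), of the predicted gene Gm17695, was lower in both genotypes. Predicted loci left out, the 10 lowest genes with the same sign in both were dim, Rpe65 apart: Mup20 (-0.93), 5 olfactory receptor genes, Magea1, Klk1b22 and Vmo1 all had mean log2 values under 6.

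Each genotype has 1 lens-rich array, so genotype is balanced over the classes and could be tested. With lens class as a covariate limma's test called 32 of 23521 probe sets (0.136%) at an adjusted p under 0.05, of which 22 were higher (0.0935%) and 10 lower (0.0425%) in the knockouts. With genotype as the only term 66 were called (0.281%), and 30 were called in both fits. The median SE of the genotype difference was 0.107 with the class term and 0.109 without it. For the 35 probe sets higher in both genotypes it was 0.236 against 1.21. That drop follows from their selection for a class difference and is no result about the class term. None of the 26 lens-list probe sets among these was called, the smallest adjusted p being 0.333.

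The 32 called probe sets had a median absolute class difference of 0.0918, against 0.0873 over all probe sets, and none of them was on a lens list. Predicted and unnamed loci left out, the largest rises were those of Tceanc2 (1.81, SE 0.11, adjusted p = 0.0148), Lypd10 (1.65), Tex15, a gene of male meiosis (1.44), Gulo, which completes ascorbate synthesis (1.35), the lysosomal transporter Abcd4 (1.34) and the apelin receptor ligand Apela (1.25). The class differences of these 6 ran from -0.36 (Gulo) to 0.27 (Tex15). With the same loci left out, the largest falls were those of the choline transporter Slc5a7 (-1.56, SE 0.15, adjusted p = 0.0196), the adenylate kinase Ak5 (-1.54), the Ras activator Rasgrf2 (-1.25), Ramp3, a receptor accessory protein (-1.12), the transcription factor Mef2c (-0.93) and Dpyd, an enzyme of pyrimidine breakdown (-0.88). Their class differences ran from -0.07 (Ak5) to 0.19 (Rasgrf2). Leaving out any 1 of the 6 arrays left 0 calls in limma's test, with 1399 (without wildtype 2) to 2486 (without knockout 3) probe sets at an unadjusted p under 0.05. Leaving out both lens-rich arrays left 0 calls in limma's test, with 2146 at an unadjusted p under 0.05. For genotype, leaving out knockout 2 or wildtype 1 alone is the same fit, since the class term absorbs the remaining lens-rich array. These are therefore not separate checks.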

How the data were processed

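Whole-retina RNA (100 ng per array) of 6 mice was hybridised to 1-colour Affymetrix gene arrays. The authors deposited log2 expression values; the submitters' processing notes name RMA. Its software and version are not given in the sources used. RMA quantile-normalizes the arrays, so values are relative to the signal of all probe sets. Of 41345 probe sets 23521 had exactly 1 gene symbol (22180 genes), 1814 had several and 16010 had none here; 23328 of the 23521 matched the RefSeq GRCm38.p6 table.

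Lens class and genotype were fitted together in R 4.3.3 by limma 3.58.1's lmFit, followed by eBayes, with Benjamini-Hochberg adjustment over all 23521 probe sets and a threshold of 0.05. The class coefficient is a description, because Cryaa on the same arrays made the classes. The number of arrays limits the precision, and p-values measure the spread between these samples, each labelled as a mouse. The procedure was tested on simulated data. Replicate numbers were not used as pairs in the main fit. Deviations from the genotype mean correlated at -0.246, -0.326 and -0.0088 between same-numbered arrays. The lens-rich arrays carry different numbers (knockout 2 and wildtype 1), and their deviations correlated at 0.367. These values therefore cannot decide whether the numbers pair the samples. Named genes were Atrx, all crystallins, up to 8 members of each other lens list, up to 4 of each other list by size of the class coefficient, up to 20 genes off the lens lists and higher in both genotypes, the 10 lowest of the same sign in both, and the 6 largest called genotype differences each way. Predicted loci were left out of the rule, and a gene was given by its brightest probe set. Genes named outside it were chosen after their values were seen. The members and gene lists were chosen with earlier results of these data known. Plots were drawn with matplotlib 3.10.9.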

Additional observations from a re-analysis of the deposited data

Results flagged for a closer look

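Among the members of the gene lists, knockout 2 lay above the lens-poor arrays of its genotype and wildtype 1 below those of its own, with the 2 differences at least 1 apart (log2), for 7 genes. The pattern also occurs in genes outside the lists, Mpzl2 for one, which were not part of this search. The difference of the 2 differences was 1.704 for Tyr, 1.408 for Dcn, 1.338 for Pmel, 1.31 for Mlana, 1.206 for Tyrp1, 1.118 for Lum and 1.061 for Dct (log2). With 1 lens-rich array in each genotype these differences were not tested. Knockout 1 was the lowest array for all 7.

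Among the 17824 probe sets outside the comparison, because they carry no symbol or several, 28 were higher on the lens-rich array by a log2 value of at least 1 in both genotypes (0.157%) and 8 were lower by as much. Of the 28 higher, 26 carried no symbol and 2 carried several.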

How the results depend on the processing

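The count of 35 probe sets higher on the lens-rich arrays was 58 at 1.5-fold and 35 to 38 without each lens-poor array in turn. It was 26 at a log2 difference of 2 and 25 under each filter on low values. With the brightest probe set of each gene it was 29, and after a second quantile normalization 37. The count lower was 1; it was 16 at 1.5-fold, 0 at a log2 difference of 2, under each filter on low values and after a second quantile normalization, and 0 to 1 without each lens-poor array. The crystallin median of 5.79 was 5.34 with a log2 value of at least 5 on 3 arrays and 5.30 to 6.10 without each array. The fibre median of 1.94 was 2.89 with a mean of at least 6, 2.42 with the brightest probe set of each gene and 1.61 to 2.99 without each array. The 32 genotype calls became 66 with genotype as the only term, 202 with an intensity trend and robust spread, 100 (16489 tested) and 160 (12038 tested) under the filters, 8 with the replicate block, 0 without both lens-rich arrays and 0 to 0 without each array. For genotype, leaving out either lens-rich array is the same fit as leaving out both. Chosen after seeing the data, the first filter without both lens-rich arrays gave 33 calls. The 32 calls kept their sign wherever they were tested. Atrx had adjusted p-values from 0.0454 to 0.606 over the alternatives. The cause of these changes was not tested, and 3 arrays per genotype limit all of them.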

Other observations

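Knockout 3, a lens-poor array, had low values of 3 Y-linked genes, although all mice are labelled male. Eif2s3y was at 6.51 on knockout 3 and 7.73 to 8.69 on the other 5 arrays, Kdm5d at 5.53 against 7.42 to 7.81, and Uty at 5.71 against 7.59 to 7.96. Usp9y, another Y-linked gene, was dim on all 6 arrays (3.26 to 4.61), and knockout 3 was not low there, at 3.85. Xist, the X-inactivation RNA of female cells, was at 3.26 to 3.76 on all 6 arrays. These genes were chosen after their values were seen, and no test was made.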
